A study of Mus musculus with 12 samples.

Results

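KLF4 binding was set against acetylation of histone H3 at lysine 27 (H3K27ac) in mouse induced pluripotent stem cells (iPSCs), peak by peak and gene by gene. Every region of the iPSC KLF4 list (21563 peaks) and of the iPSC H3K27ac list (55466 peaks) was used, which makes 77029 of the 173796 regions in the 4 lists of the study. Both lists came from chromatin immunoprecipitation with sequencing (ChIP-seq) of cells grown in 2i, a medium with an inhibitor of MEK and an inhibitor of GSK3 that holds mouse cells in the naive pluripotent state. The labels give 2 biological replicates, A and B, for iPSC KLF4, 2 for iPSC H3K27ac and 1 input library for each, so 4 of the 12 samples bear on the comparison and the rest are embryonic stem cell samples and inputs. The labels do not give the strain or genotype of the iPSCs, the cells they were made from, the factors used to make them or whether feeder cells were present. KLF4 chromatin was prepared from more cells than H3K27ac chromatin. Each group is deposited as 1 list of positions without heights, so there is no replicate error for any value, the depth is unknown, and the exact binomial intervals given at 95% cover counting error only.

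KLF4 is a zinc-finger transcription factor that binds GC-rich and CACCC-type DNA, and it is one of the factors used to turn somatic cells into iPSCs. In naive pluripotent cells it works beside KLF2 and KLF5 in the network around OCT4 (encoded by Pou5f1), SOX2, NANOG and ESRRB. H3K27ac is placed by the acetyltransferases p300 and CBP on nucleosomes at active promoters and enhancers. A bound factor usually occupies a stretch depleted of nucleosomes, so the mark is commonly found on the nucleosomes to either side of a bound site rather than on it.

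The lists were checked against marker genes of the labelled cells. Of 10 pluripotency markers, 9 had an H3K27ac peak within 2 kb of a gene end, with 27 such peaks in all and Sall4 as the exception, and 5 had a KLF4 peak there. Of 12 fibroblast markers none had an H3K27ac peak within 2 kb of an end, and 2 (the collagen gene Col1a1 and the transcription factor gene Twist2) had a KLF4 peak. Beside these, 19.3% of all protein-coding genes had both marks within 2 kb of an end, 19.6% H3K27ac only and 9.44% KLF4 only. Genes outside these sets differed: Fn1, a fibroblast gene, had 1 H3K27ac peak within 2 kb of an end, and the pluripotency genes Nr0b1, Lin28a, Dppa3 and Nr5a2 had 0. Peaks are called here "overlapping" when they share 1 bp or more with the other mark. A KLF4 peak without overlap is called "beside" when an H3K27ac edge lies within 1 kb of its centre and "apart" when none does.

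Promoter sequences show what the different combinations look like on DNA. The windows below run from 250 bases before to 50 bases after a gene's start and are RefSeq sequence of GRCm38.p6, the assembly that mm10 names, written 5′ to 3′ on the gene's strand. Capitals mark matches to the KLF-type motif GGGNGTGG, where N is any base, or to its reverse complement CCACNCCC. The windows of Tfcp2l1, Zfp57, Nr5a2 and Pou5f1, 4 genes of pluripotent cells, met both a KLF4 peak and an H3K27ac peak. Those of Utf1 (a chromatin factor of pluripotent cells), Cldn3 (a tight-junction claudin) and Col5a1 (a fibrillar collagen chain) met KLF4 without H3K27ac, and that of Rpl10 (a ribosomal protein) met H3K27ac without KLF4.
Tfcp2l1, chr1:118627695-118627994, plus strand: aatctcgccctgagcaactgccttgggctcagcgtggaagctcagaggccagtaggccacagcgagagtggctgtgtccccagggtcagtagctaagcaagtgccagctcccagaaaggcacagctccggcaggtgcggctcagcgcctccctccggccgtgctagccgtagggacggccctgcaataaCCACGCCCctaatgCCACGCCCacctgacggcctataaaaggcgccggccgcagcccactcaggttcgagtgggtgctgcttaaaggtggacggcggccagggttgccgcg
Zfp57, chr17:37002275-37002574, plus strand: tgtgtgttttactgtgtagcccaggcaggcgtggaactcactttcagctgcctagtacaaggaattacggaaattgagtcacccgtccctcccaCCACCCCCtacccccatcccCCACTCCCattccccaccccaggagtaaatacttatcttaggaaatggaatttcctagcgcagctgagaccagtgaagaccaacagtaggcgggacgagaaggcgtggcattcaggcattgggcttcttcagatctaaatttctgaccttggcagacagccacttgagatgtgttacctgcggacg
Nr5a2, chr1:136953581-136953880, minus strand: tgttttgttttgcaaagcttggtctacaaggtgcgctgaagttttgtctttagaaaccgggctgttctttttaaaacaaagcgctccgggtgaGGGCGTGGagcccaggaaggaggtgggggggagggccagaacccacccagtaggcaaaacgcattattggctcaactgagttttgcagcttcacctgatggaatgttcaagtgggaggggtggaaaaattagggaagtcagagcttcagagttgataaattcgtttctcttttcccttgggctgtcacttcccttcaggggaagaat
Pou5f1, chr17:35505782-35506081, plus strand: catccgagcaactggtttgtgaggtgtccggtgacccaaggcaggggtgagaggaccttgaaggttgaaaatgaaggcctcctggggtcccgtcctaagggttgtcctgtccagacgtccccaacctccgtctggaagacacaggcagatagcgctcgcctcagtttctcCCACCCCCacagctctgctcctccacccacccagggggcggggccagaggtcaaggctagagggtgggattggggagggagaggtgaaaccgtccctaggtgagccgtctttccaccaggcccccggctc
Utf1, chr7:139943606-139943905, plus strand: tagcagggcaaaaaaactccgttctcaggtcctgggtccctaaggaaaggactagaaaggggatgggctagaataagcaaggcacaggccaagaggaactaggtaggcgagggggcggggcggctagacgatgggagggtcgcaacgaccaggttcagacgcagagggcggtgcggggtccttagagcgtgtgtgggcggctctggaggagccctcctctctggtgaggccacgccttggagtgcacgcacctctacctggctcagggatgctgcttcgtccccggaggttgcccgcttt
Cldn3, chr5:134985964-134986263, plus strand: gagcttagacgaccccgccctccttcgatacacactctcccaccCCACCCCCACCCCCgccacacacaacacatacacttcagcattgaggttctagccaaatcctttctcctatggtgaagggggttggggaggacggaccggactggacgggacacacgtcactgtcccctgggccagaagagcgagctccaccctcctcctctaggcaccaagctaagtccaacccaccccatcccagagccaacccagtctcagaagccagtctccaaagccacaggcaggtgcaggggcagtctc
Col5a1, chr2:27886175-27886474, plus strand: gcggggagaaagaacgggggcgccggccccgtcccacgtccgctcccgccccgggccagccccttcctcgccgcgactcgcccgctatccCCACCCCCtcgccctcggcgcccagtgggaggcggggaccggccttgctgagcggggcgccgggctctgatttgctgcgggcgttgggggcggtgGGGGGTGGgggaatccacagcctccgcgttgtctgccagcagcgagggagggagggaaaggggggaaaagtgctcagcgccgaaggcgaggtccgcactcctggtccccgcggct
Rpl10, chrX:74270566-74270865, plus strand: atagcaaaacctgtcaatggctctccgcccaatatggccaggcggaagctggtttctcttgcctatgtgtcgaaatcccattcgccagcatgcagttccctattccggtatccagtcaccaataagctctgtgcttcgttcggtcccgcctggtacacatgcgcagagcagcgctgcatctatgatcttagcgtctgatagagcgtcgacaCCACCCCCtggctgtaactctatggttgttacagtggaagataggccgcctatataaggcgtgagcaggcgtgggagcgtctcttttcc

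The 2 matches of the Tfcp2l1 window lie 61 and 47 bases before the start, and both fall inside the 461 bp KLF4 peak there, whose centre is inside a 5670 bp H3K27ac peak. The single match of Nr5a2, which encodes the nuclear receptor LRH-1, lies 3 bp from the centre of its KLF4 peak. That window is at a start inside the gene, and the KLF4 centre is 6662 bp from the nearest end of the gene. That of Pou5f1 lies 19 bp from the centre of a KLF4 peak of 103 bp. The 2 overlapping matches of Cldn3 lie 11 and 17 bp from the KLF4 centre, while the nearest H3K27ac peak begins 4118 bp from the window. Col5a1 and Zfp57 show the other case. The 2 matches of Zfp57, which encodes a zinc-finger protein that maintains imprints, lie outside its KLF4 peak of 127 bp, 135 and 115 bp from the centre. The 2 matches of Col5a1 also lie outside the KLF4 peak, and the nearest H3K27ac peak is 139727 bp away. The window of Utf1 holds a 278 bp KLF4 peak and no match, with H3K27ac from 1305 bp on, and the Rpl10 window holds 1 match without a KLF4 peak. Rpl10 as a gene did have 1 KLF4 peak within 2 kb of an end, outside the window, and that peak overlapped H3K27ac.

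Per kb of distance, KLF4 centres outside acetylated chromatin were most numerous next to its edge and became fewer farther out. Of all KLF4 peaks, 10497 (48.7%) overlapped H3K27ac, 2102 (9.75%) lay beside it and 8964 (41.6%) lay apart. The centre was inside an H3K27ac peak in 7603 (35.3%). Of the 13960 centres outside, 30.2% had an edge within 300 bp, 7.92% had the nearest edge 300 to 2000 bp away, and the median distance was 8176 bp. Per kb of distance, KLF4 centres numbered 5770 at 200 to 300 bp, 670 at 500 to 1000 bp, 328 at 1 to 2 kb, 296 at 2 to 5 kb, 154 at 10 to 20 kb and 76.7 at 20 to 50 kb. Larger distances fit only in longer gaps, so less sequence lies there, and the counts were not divided by it. For KLF4 peaks apart from H3K27ac the median distance to the nearest edge was 24934 bp, with quartiles of 9379 and 63009 bp. It was 22929 bp for those within 2 kb of a gene end and 25869 bp for the others.

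**Figure D1:**
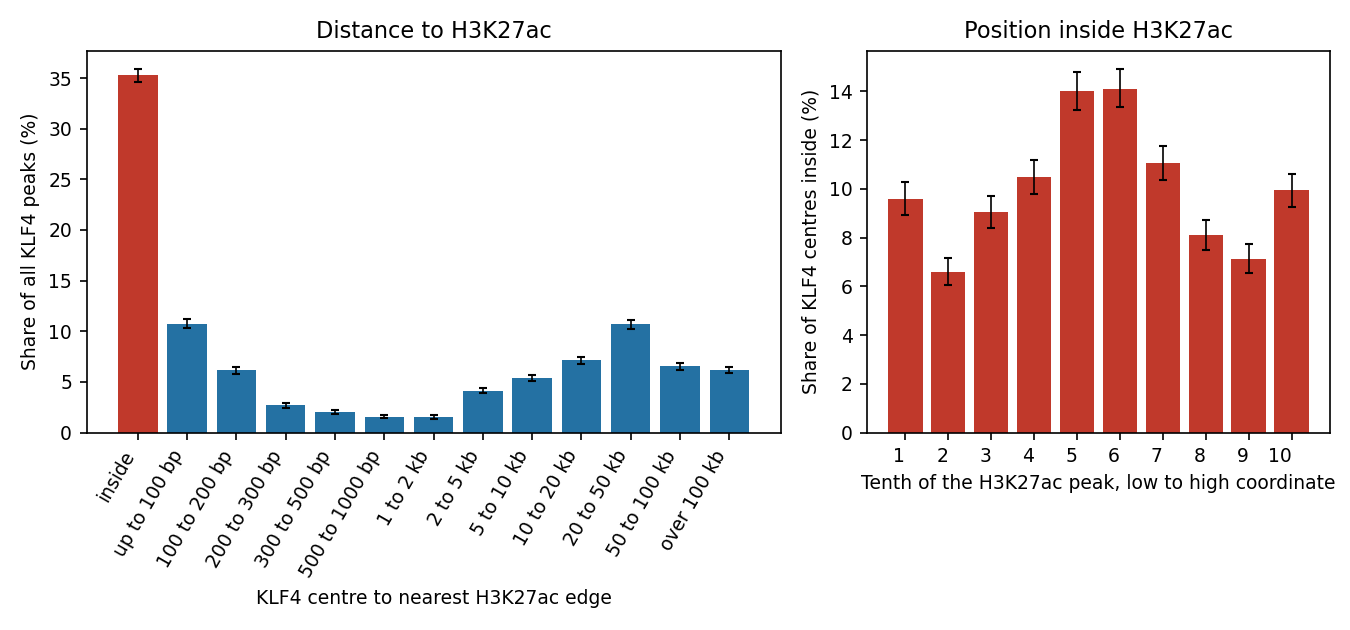
Left, share of all 21563 KLF4 peaks by the distance from their centre to the nearest H3K27ac edge, in bins of unequal length, with the centres inside a peak in red; right, share of the 7603 inside centres by position along the H3K27ac peak's length in 10 equal segments. Bars are shares and whiskers 95% exact intervals for counting error. Of all centres, 35.3% were inside. From 1 to 50 kb the bars rise with bin length, while KLF4 peaks per kb of distance fall from 328 to 76.7 at 20 to 50 kb. These counts are not per kb of sequence. The fifth and sixth segments held 14.0% and 14.1% of the inside centres.

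Within an H3K27ac peak, KLF4 centres were most frequent in the middle, and more frequent at the very ends than just inside them. With the peak's length divided into 10 equal segments, the fifth and sixth held 14.0% and 14.1% of inside centres, the second and ninth held 6.59% and 7.13%, and the first and last held 9.59% and 9.93%. The pattern differed with peak length. In H3K27ac peaks of 500 to 1000 bp, the outer 10% at each end together held 33.8% of the centres (31.6 to 36.1%) and the middle 20% held 15.6%. In peaks of 2000 to 4000 bp the outer parts held 8.28% (7.04 to 9.66%) and the middle 41.4%.

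Acetylation dipped at the KLF4 centre. H3K27ac peaks covered 35.3% of KLF4 centres, against 42.3% of the positions 300 bp to either side and 8.58% of those 3 kb to either side. The dip was deeper away from gene ends. There the cover was 30.4% at the centre (29.6 to 31.2%) and 39.9% and 40.2% at 300 bp on the lower and higher coordinate side. Within 2 kb of a gene end it was 44.0% at the centre (42.9 to 45.1%), with the highest values, 47.2% and 46.5%, at 200 and 250 bp. The dip was seen in narrow and wide KLF4 peaks: from the mean of both side maxima to the centre it came to 4.11 percentage points in the narrowest tercile and 8.85 in the widest.

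**Figure D2:**
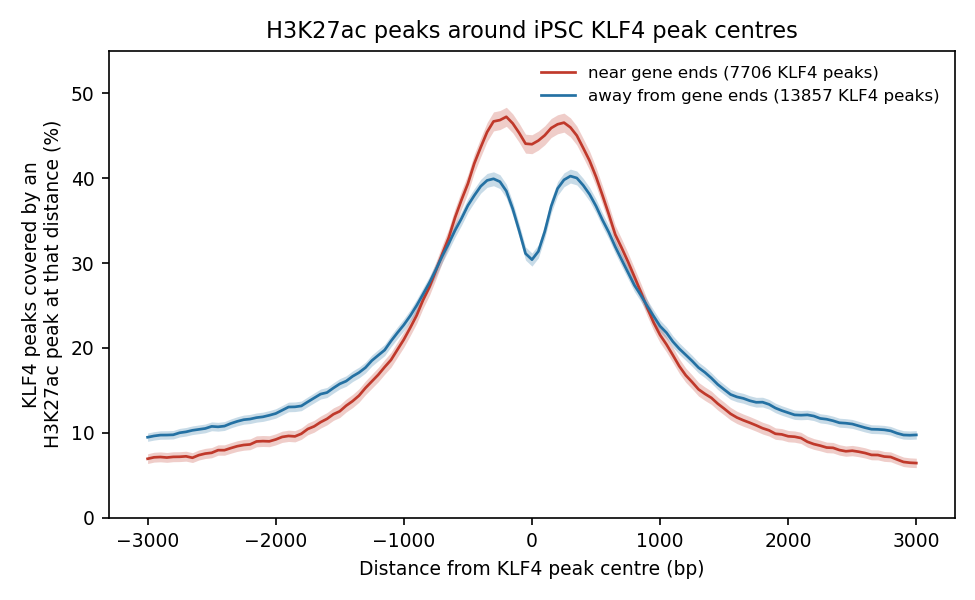
Share of KLF4 peaks (y axis, %) whose position at a given distance from the KLF4 centre (x axis, bp, by coordinate) lies in an H3K27ac peak, for the 7706 KLF4 peaks within 2 kb of a gene end and the 13857 others; bands are 95% exact intervals. Both curves dip at the centre, to 44.0% near gene ends and to 30.4% away from them.

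Some KLF4 peaks sat in a short gap between acetylated pieces. For 2161 KLF4 peaks (10.0%; 9.62 to 10.4%), the centre was outside H3K27ac and an H3K27ac edge lay within 1 kb on both sides. The gap was short: its median was 256 bp with quartiles of 165 and 393 bp, and 84.6% were at most 500 bp. The nearer edge was at a median of 68 bp and the farther one at 181 bp. In 1741 of these peaks (80.6%) the KLF4 peak itself touched an H3K27ac peak, and in 883 it touched one on each side. This arrangement held 11.3% of KLF4 peaks away from gene ends (10.8 to 11.9%) and 7.70% of those near them (7.11 to 8.31%), whereas centres inside H3K27ac were more frequent near gene ends (44.0% against 30.4%).

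Seen from the acetylated side, gaps of 51 to 500 bp were denser in KLF4 than the peaks themselves, and gaps of 50 bp or less were not. KLF4 centres numbered 0.670 per kb in gaps of 101 to 200 bp between neighbouring H3K27ac peaks and 0.653 per kb in gaps of 201 to 300 bp. Inside H3K27ac peaks there were 0.204 per kb, in gaps of 50 bp or less 0.140 per kb, in gaps of 1001 to 2000 bp 0.0329 per kb, and in gaps over 10 kb 0.00424 per kb. Of the 3404 gaps of 201 to 300 bp, 16.1% held a KLF4 centre (14.9 to 17.3%), against 0.425% of the 2591 gaps of 50 bp or less. A gap here is a stretch without a called peak, since the lists hold no signal between peaks.

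**Figure D3:**
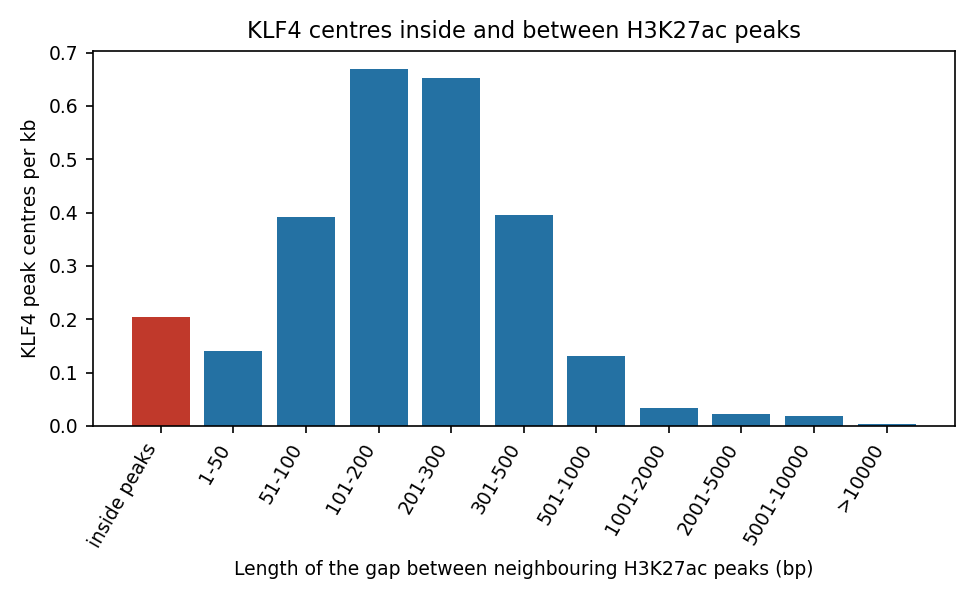
KLF4 peak centres per kb (y axis) inside H3K27ac peaks (red) and in the gaps between neighbouring H3K27ac peaks by gap length in bp (x axis, blue). Density was 0.204 per kb inside peaks, 0.670 in gaps of 101 to 200 bp and 0.00424 in gaps over 10 kb.

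The genes with the most flanked KLF4 peaks were Rab11fip4 and Trim24 with 4 each. Trim24, which encodes a bromodomain protein that reads histone acetylation, had 5 KLF4 peaks in all, and Rab11fip4 had 12. A further 28 genes had 3, of which the first 8 by name were Akap12, Amotl2, Csmd1, Csrnp1, Esrrb, Garnl3, Gli2 and Gtf2ird1. Esrrb encodes an orphan nuclear receptor of the naive network. Its flanked peaks had gaps of 59 and 153 bp, 163 and 218 bp, and 21 and 69 bp to the H3K27ac edges on the lower and higher side. Tbx3, a T-box factor of naive cells, also had 3. Klf4 itself gave a further case: a 961 bp KLF4 peak at chr4:55532148-55533108, with its centre 152 bp from the gene's end at the higher coordinate, had H3K27ac edges 97 bp below and 103 bp above its centre.

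Wider peaks of either list met the other mark more often. KLF4 peaks overlapped H3K27ac in 30.3% of the narrowest decile (73 to 144 bp) and 75.2% of the widest (481 bp and more). The share of KLF4 peaks with the centre inside H3K27ac went from 26.1% to 57.8%. A wide peak has more bases to overlap with, and the cause of the rise was not tested. H3K27ac peaks met KLF4 in 3.60% of the narrowest decile and 58.4% of the widest (1429 bp and more), and KLF4 centres per kb of H3K27ac peak went from 0.0668 to 0.263. The median H3K27ac width was 346 bp with no KLF4 peak, 797 bp with 1, 1992 bp with 2, 4102 bp with 3 and 6563 bp in the 42 peaks with 4 or more. When H3K27ac peaks 1 kb or less apart were joined, 12.8% of the 15861 domains of 1 piece held KLF4, against 70.4% of the 883 domains of 6 or more pieces. These domains had median lengths of 404 and 6850 bp, and per kb the order was the other way, with 0.229 KLF4 centres in domains of 1 piece and 0.156 in those of 6 or more. Peak height was not in the lists, so width could not be set against it.

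**Figure D4:**
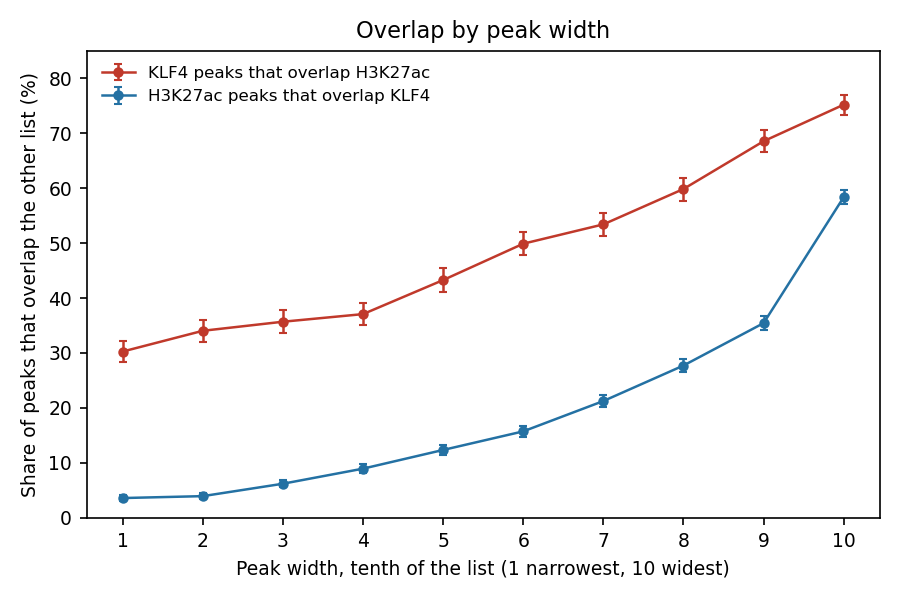
Share of peaks that overlap the other list (y axis, %) by decile of peak width within each list (x axis, 1 narrowest), for KLF4 and H3K27ac; points are shares and whiskers 95% exact intervals. KLF4 peaks go from 30.3% to 75.2% and H3K27ac peaks from 3.60% to 58.4%.

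The widest acetylated peaks with KLF4 lay at genes of pluripotent cells and oocytes as well as at others. The first, 20764 bp at chr9:78358317-78379080 with 3 KLF4 peaks, spans Dppa5a (a developmental pluripotency gene) and Ooep (an oocyte and embryo gene). The next, 20186 bp at chr12:4895798-4915983 with 2, overlaps Ubxn2a and Atad2b. The third, 17517 bp at chr7:3198461-3215977 with 6, lies just below the miR-290 to miR-295 cluster. The others lie in Myo10 (15358 bp, 1 KLF4 peak) and Tmem51 (15102 bp, 4 KLF4 peaks). The widest H3K27ac peaks without KLF4 were shorter, at 9412 bp in Mtf2, a Polycomb protein gene, 9310 bp in Tns3, 7643 bp near Kat6b, 7239 bp in Mdm4 and 7172 bp in Zfp638. Among KLF4 peaks that overlap H3K27ac, the widest were 4383 bp at Crlf2, 1721 bp at Klf13, 1684 bp in Ncam1, 1613 bp in Fcgr3 across 2 tRNA genes and 1493 bp near Chd2. Wide KLF4 peaks without H3K27ac included 1273 bp at Dop1b and 1097 bp at Cdc42ep3. Others of 1056 and 1055 bp lay on 5S ribosomal RNA genes, 22927 and 7682 bp from an end of Gas8.

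The miR-290 to miR-295 cluster makes a microRNA family that is abundant in mouse pluripotent cells, and the miR-302 microRNAs of another cluster share its seed. It was looked at after the wide peak beside it had been seen, with other microRNA clusters. Within 10 kb of a hairpin, both marks were present at 24.7% of the 1228 microRNA hairpins of the reference, KLF4 alone at 8.39% and H3K27ac alone at 15.2%. The 9 hairpins of the miR-290 to miR-295 cluster, at chr7:3218626-3220841, had 4 KLF4 peaks within 10 kb, and all 4 overlapped H3K27ac. Their centres lay at -6907, -6275, -6007 and -2365 bp by coordinate from the start of the first hairpin, on the side from which the cluster is read. The first 3 fell in the 17517 bp H3K27ac peak and the last in a peak of 6100 bp that covers the hairpins. The miR-302 and miR-367 cluster had 1 KLF4 peak, 8123 bp above its first hairpin, in a 1781 bp H3K27ac peak.

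At the miR-182, miR-96 and miR-183 cluster there were 7 KLF4 peaks, of which 4 overlapped H3K27ac and 2 lay apart. All 7 lay 5452 to 9857 bp above the first hairpin, and since these microRNAs are read from the minus strand, that is on their upstream side. The 2 clusters of the miR-200 family, which is typical of epithelial and pluripotent cells, had 1 overlapping KLF4 peak each. So had the miR-17 to miR-92 cluster and the cluster of let-7a-1, let-7f-1 and let-7d. The let-7c-2 and let-7b cluster, whose products rise with differentiation, had no peak of either list within 10 kb. The mature microRNAs below are from RefSeq for GRCm38.p6, with the seed (bases 2 to 8) in capitals. They show that the 5 printed from the miR-290 to miR-295 and miR-302 clusters share 1 seed, while the miR-182 cluster has 3 seeds.
miR-291a-3p, chr7:3218968-3218989, plus strand: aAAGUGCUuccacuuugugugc
miR-294-3p, chr7:3220691-3220712, plus strand: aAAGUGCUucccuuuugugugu
miR-295-3p, chr7:3220815-3220837, plus strand: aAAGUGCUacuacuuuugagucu
miR-302b-3p, chr3:127545275-127545297, plus strand: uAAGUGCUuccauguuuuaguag
miR-302d-3p, chr3:127545665-127545687, plus strand: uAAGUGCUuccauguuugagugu
miR-182-5p, chr6:30165962-30165986, minus strand: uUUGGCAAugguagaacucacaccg
miR-96-5p, chr6:30169506-30169528, minus strand: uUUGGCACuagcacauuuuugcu
miR-183-5p, chr6:30169711-30169732, minus strand: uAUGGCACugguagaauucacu

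KLF4 with acetylation was found nearer to gene ends than KLF4 without it. A coding gene began or ended within 2 kb of the centre for 42.1% of overlapping KLF4 peaks, 35.0% of those beside and 28.4% of those apart, and the median distance to an end was 4549, 7063 and 9832 bp. Read the other way, 60.8% of KLF4 peaks within 500 bp of a gene end overlapped H3K27ac and 38.2% of those more than 100 kb away did. H3K27ac peaks met KLF4 in 33.8% within 500 bp of an end and in 15.1 to 17.5% of every class from 1 kb on. On the chromosomes with start positions, 40.0% of overlapping KLF4 peaks and 24.6% of apart ones lay within 2 kb of a gene start. Away from both ends but inside a gene lay 22.9% of overlapping KLF4 peaks, 31.6% of apart ones, 24.1% of H3K27ac peaks with KLF4 and 41.0% of H3K27ac peaks without it.

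Cover by the 2 marks had its maxima at different places around gene starts, and many positions carried both. Over all promoter windows, KLF4 cover was highest 50 bp before the start, at 15.6%, where H3K27ac cover was 22.0% and both covered 6.13%. At 100 bp after the start KLF4 covered 11.8%, H3K27ac 32.3% and both 7.20%. H3K27ac cover had its maxima 300 bp before the start (24.1%) and 150 bp after it (33.6%), with a minimum of 20.8% at 100 bp before it.

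Protein-coding genes were then sorted by the peaks nearest to their ends, within 100 kb. Of 21883 genes, 7966 carried both marks (36.4%), 2199 KLF4 only (10%), 4224 H3K27ac only (19.3%) and 7494 neither (34.2%). KLF4 and H3K27ac overlapped at 1 or more sites in 5978 genes (27.3%). With peaks within 2 kb of an end, 4213 genes carried both (19.3%), 2066 KLF4 only (9.44%) and 4280 H3K27ac only (19.6%). Genes with more KLF4 peaks had more H3K27ac peaks: the median was 0 for genes without KLF4, 1 with 1 KLF4 peak, 3 with 2 and 21 with 8 or more, and 36.0%, 70.3%, 83.5% and 98.1% of these genes had any. Each peak was assigned to 1 gene, the one with the nearest end, so a gene without an assigned peak can still have one nearby that belongs to a neighbour. Of the 36 list members with KLF4 only, 23 had such an H3K27ac peak within 100 kb, and the median distance from the 36 genes to the nearest H3K27ac peak was 53906 bp. By the nearest-end rule, a gene with distant neighbours can take in more peaks of both lists, and counts were not adjusted for that.

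At the naive and shared pluripotency genes most KLF4 sites overlapped acetylation. Both marks were carried by 36.4% of all genes. Of 22 naive genes 21 carried both marks, with Nr0b1 carrying neither, and 73 of their 94 KLF4 peaks (77.7%) overlapped H3K27ac, against 49.6% for the peaks of all genes. Of 17 core and shared genes 16 carried both, with Lin28a carrying H3K27ac only, and 51 of 67 KLF4 peaks (76.1%) overlapped. The medians were 3 KLF4 and 8.5 H3K27ac peaks per naive gene and 4 and 11 per shared gene, against 0 and 1 over all genes. The gene with most overlapping KLF4 peaks was Tbx3, with 12 of 13 and 39 H3K27ac peaks. Esrrb followed with 10 of 13 and 35, and Tfcp2l1, a factor of the naive state, with 8 of 10 and 54.

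Some of these genes had all their KLF4 sites away from the ends. Tbx3, Esrrb, the Polycomb cofactor gene Jarid2, the DNA demethylase gene Tet1 and the ETS factor gene Etv5 had no KLF4 peak within 2 kb of an end, although each had 1 to 5 H3K27ac peaks there. Jarid2 had 7 of 9 KLF4 peaks overlapping, Tet1 7 of 7 and Etv5 6 of 6. All 7 Tet1 sites had their centre inside an H3K27ac peak, 8333 to 39526 bp from a gene end, and 3 of them shared 1 H3K27ac peak of 7365 bp. At Tfcp2l1, 4 KLF4 centres lay inside 1 H3K27ac peak of 13756 bp, 14903 to 22406 bp from an end. At Klf4, 7 of 8 sites overlapped, of which 3 lay in a 12610 bp H3K27ac peak 46627 to 51528 bp from the gene and 3 within 2 kb of its ends. The eighth, 85900 bp away, was 83947 bp from any acetylated edge.

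Sites at the gene's ends were seen at Phc1, and other pluripotency genes had both near and far sites. Phc1, a Polycomb subunit, had 6 KLF4 peaks, all inside H3K27ac and 408 to 2373 bp from an end, and 5 of them in 1 H3K27ac peak of 6600 bp. Mycn, a proto-oncogene of the MYC family, had 5 of 6 overlapping, 534 to 33423 bp from an end, and Tdh, threonine dehydrogenase, 5 of 5 at 199 to 8063 bp, of which 2 were flanked. Klf5 had 3 of 8 overlapping and 2 apart. Dppa3, known as Stella, went the other way, with 4 of 5 KLF4 peaks apart from acetylation, and 3 KLF4 peaks but no H3K27ac peak within 2 kb of its ends. Epcam, a surface adhesion protein of epithelial and pluripotent cells, had 5 of 6 apart. Sox2 had 2 of 6 overlapping and 3 apart, with no KLF4 peak within 2 kb of an end. Utf1 had 0 of 2 overlapping and Dppa4 0 of 1.

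Over all genes, the most overlapping KLF4 peaks were at Klf9 (13 of 14), another KLF gene that steroid hormones induce in many tissues. Ahnak, a large scaffold protein gene, and Tbx3 had 12 each, and Aff1, a gene for a subunit of the super elongation complex, had 11 of 11. With 10 there were Cd9 and Hs6st1 (10 of 10 each), Irf2bpl and Ppp2r5c (10 of 11 each), Esrrb (10 of 13) and BC107364 (10 of 15), the first 6 by name of 7 genes with this count. These genes had 18 (BC107364) to 48 (Aff1) H3K27ac peaks.

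Members of KLF4's own family were among the genes richest in shared sites. Beside the shares below, 36.4% of all genes carried both marks and 10% KLF4 only, and 49.6% of their KLF4 peaks overlapped H3K27ac. Of 25 KLF and SP genes 21 carried both marks, 2 KLF4 only (Klf17 and Sp8) and 2 neither, and 74 of their 99 KLF4 peaks (74.7%) overlapped H3K27ac. Klf9 had 13 of 14 overlapping, Klf10 and Klf13 had 8 of 9 each and Sp1 had 7 of 7. In the LIF and STAT3 pathway, which carries the self-renewal signal of mouse pluripotent cells, 12 of 15 genes carried both and 3 KLF4 only, and 41 of 59 KLF4 peaks (69.5%) overlapped. The kinase gene Pim1 had 8 of 9, the feedback inhibitor gene Socs3 8 of 8, and Bcl3 and Fos 6 of 7 each. The LIF receptor gene Lifr had 4 of 6 overlapping but no H3K27ac peak within 2 kb of an end. The 3 with KLF4 only were the kinase gene Jak1 (2 peaks), the inhibitor gene Cish (1) and the homeobox gene Gbx2 (1).

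**Figure D5:**
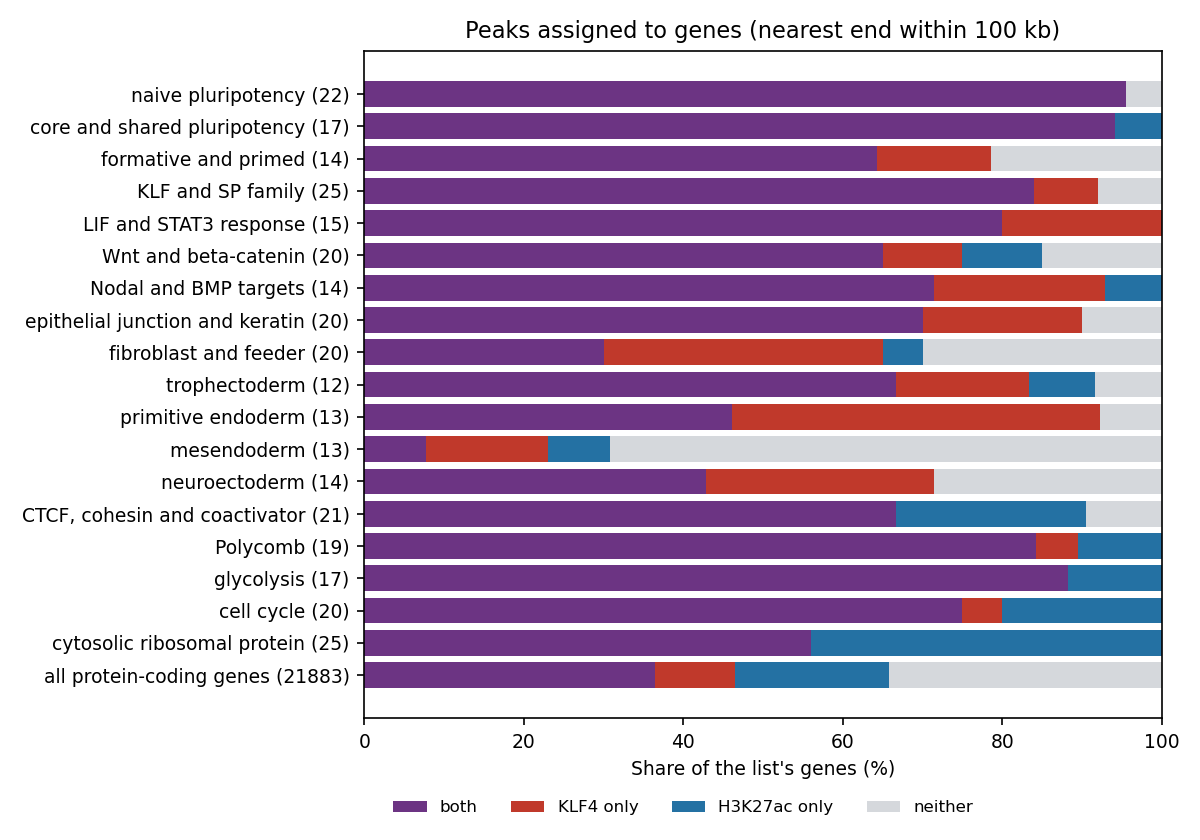
Share of each list's protein-coding genes (x axis, %; number of genes in brackets) that carry both marks, KLF4 only, H3K27ac only or neither, by nearest gene end within 100 kb, with all genes as the bottom bar. Both marks were carried by 21 of 22 naive pluripotency genes and 36.4% of all genes; KLF4 alone was carried by 6 of 13 primitive endoderm and 7 of 20 fibroblast genes.

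Lists of other lineages were short, so their overlap shares rest on few KLF4 peaks and stand beside 49.6% for the peaks of all genes. The median number of KLF4 peaks per gene was 1 for primitive endoderm and neuroectoderm, and 0 for mesendoderm and for all genes. Over all genes, 36.4% carried both marks, 10% KLF4 only and 34.2% neither. Of 13 primitive endoderm genes, 6 carried both, 6 KLF4 only and 1 neither, and 3 of 19 KLF4 peaks (15.8%; 3.38 to 39.6%) overlapped H3K27ac. The 6 with KLF4 only were Sox7 and Foxa2, both lineage factors, Dab2, an endocytic adaptor, the receptor gene Pdgfra and the basement membrane collagens Col4a1 and Col4a2. The overlapping peaks were at Sparc (2 of 2) and Lama1 (1 of 1). Gata6 carried both, with 6 H3K27ac peaks and 2 KLF4 peaks that did not overlap. Of 14 neuroectoderm genes, 6 carried both, 4 KLF4 only, among them Sox3, Hes5 and Gbx2, and 4 neither. Of their KLF4 peaks, 3 of 15 (20%; 4.33 to 48.1%) overlapped. Sox1 had 2 KLF4 peaks, both apart, and 5 H3K27ac peaks. In the mesendoderm list 9 of 13 carried neither mark, Gsc carried both, Eomes H3K27ac only, and Foxa2 and Wnt3 KLF4 only, with 2 of 7 KLF4 peaks (28.6%; 3.67 to 71.0%) overlapping.

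KLF4 sites at fibroblast genes overlapped acetylation in 12 of 27 cases (44.4%; 25.5 to 64.7%), beside 49.6% for the peaks of all genes. Of 20 genes, beside 10% of all genes with KLF4 only, 7 carried KLF4 only (Col5a1, Col6a1, Col6a3, Vim, Pdgfra, Twist2 and Acta2), 6 both, 1 (Thy1) H3K27ac only and 6 neither. Vim, the intermediate filament of mesenchymal cells, had 2 KLF4 peaks within 2 kb of its ends, and the nearest H3K27ac peak, assigned to another gene, was 29313 bp away. Fn1, fibronectin, had 6 of 6 KLF4 peaks overlapping and 27 H3K27ac peaks. The transcription factor gene Snai2 and the lysyl oxidase gene Loxl1 had 2 of 2 overlapping each, and the collagen genes Col3a1 and Col1a1 1 of 1 and 1 of 2.

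At epithelial junction and keratin genes, KLF4 at the gene's ends was mostly without acetylation. Within 2 kb of an end, 10 of 20 genes had KLF4 only, 5 both, 1 H3K27ac only and 4 neither, beside 9.44% with KLF4 only over all genes. With peaks up to 100 kb from an end, 14 of the 20 carried both, 4 KLF4 only and 2 neither. Over all genes 36.4% carried both and 10% KLF4 only by that rule. The 10 with KLF4 only within 2 kb were Epcam, the claudins Cldn3 and Cldn7, the junction genes Ocln, Tjp1 and Dsp, the splicing factor Esrp1 and the keratins Krt8, Krt18 and Krt19. Krt19 had 3 KLF4 peaks, all apart, with the nearest H3K27ac peak 128495 bp from the gene, and Cldn7 had 2, also apart, with the nearest 11677 bp away. Jup (plakoglobin) had 5 of 5 overlapping and Cdh1 (E-cadherin) 3 of 4, the latter with 22 H3K27ac peaks and none of its KLF4 peaks within 2 kb of an end. Of the list's 56 KLF4 peaks, 25 (44.6%) overlapped, beside 49.6% for the peaks of all genes. In the trophectoderm list 8 of 12 genes carried both marks by the 100 kb rule and 2 KLF4 only, and 12 of 30 KLF4 peaks (40%) overlapped. Tead4 had 5 of 6 overlapping, while Gata2 had 3 of 3 apart with no H3K27ac peak assigned and Elf5 1 of 1.

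The Wnt list, the Nodal and BMP list and the formative list had overlap shares below the 49.6% of all genes' peaks, with intervals that include it. In the Wnt list 18 of 45 KLF4 peaks (40%; 25.7 to 55.7%) overlapped, with Tcf7l1, a repressor of the pluripotency network, at 4 of 8 and 35 H3K27ac peaks, and with Tcf7 and Nkd1 carrying KLF4 only, although an H3K27ac peak assigned to another gene overlaps Tcf7. Of the Nodal and BMP genes, 16 of 37 KLF4 peaks (43.2%) overlapped. Bmp4, a ligand, had 4 KLF4 peaks, all apart, with the nearest H3K27ac peak 312330 bp from the gene, while Nodal had 3 of 3 overlapping and the inhibitor gene Smad7 4 of 6. In the formative and primed list 13 of 28 (46.4%) overlapped. Otx2 had 4 of 5 and Foxd3 4 of 8, while the DNA methyltransferase gene Dnmt3a had 4 KLF4 peaks, all apart, and Dnmt3b 1, also apart.

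Most genes of the ribosomal protein, glycolysis, cell cycle, coactivator and Polycomb lists had H3K27ac, with or without KLF4. Beside them, 36.4% of all genes carried both marks and 19.3% H3K27ac only, and 49.6% of the KLF4 peaks of all genes overlapped H3K27ac. All 25 cytosolic ribosomal protein genes had H3K27ac, 14 of them with an assigned KLF4 peak and 11 without. Of the 11, Rplp2 and Rpl4 each had 1 H3K27ac peak that met a KLF4 peak not assigned to them. Of the list's 22 KLF4 peaks, 18 (81.8%) overlapped. Glycolysis genes carried both in 15 of 17 and overlapped in 40 of 48 KLF4 peaks (83.3%). The glucose transporter genes Slc2a1 and Slc2a3 had 7 of 8 and 6 of 6, the hexokinase gene Hk1 6 of 6 and the pyruvate kinase gene Pkm 4 of 4. Of 20 cell cycle genes 15 carried both, 4 H3K27ac only (Ccne2, Plk1, Aurka and Aurkb) and 1 KLF4 only (Ccnd2). Of their KLF4 peaks, 22 of 40 (55%, interval 38.5 to 70.7%) overlapped. Of 21 genes for CTCF, cohesin and coactivators 14 carried both, 5 H3K27ac only (among them the cohesin genes Rad21, Smc1a and Stag2) and 2 neither (Nipbl and Med12). There 15 of 28 KLF4 peaks (53.6%, interval 33.9 to 72.5%) overlapped. Of 19 Polycomb genes 16 carried both, 2 H3K27ac only and 1 KLF4 only (Cbx2). Rybp had 5 of 9 KLF4 peaks overlapping and Cbx7 4 of 6. In that list 32 of 51 KLF4 peaks (62.7%, interval 48.1 to 75.9%) overlapped. The intervals of the cell cycle, coactivator and Polycomb lists include 49.6%.

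The genes with the most H3K27ac and no KLF4 peak were Pias2 (34 peaks), a SUMO ligase gene, and Psme4 (25), a proteasome activator gene. Gm14410 had 20, Ccar1, Cdc5l and Cnot1 18 each, Ireb2 and Zfp985 17 each and Asxl2 and Egln3 16 each. Cdc5l is a splicing factor and Cnot1 the scaffold of the CCR4-NOT deadenylase. All 10 had H3K27ac within 2 kb of an end, from 1 (Gm14410) to 8 (Pias2) peaks.

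The genes with the most KLF4 peaks apart from acetylation were Gas8 with 57 and Rhou with 32, which share 1 run of peaks on chromosome 8. After them the numbers were 8 for Ccdc60, Col26a1, Eln and Rap1gap and 7 for Arhgef10l, Casz1, Igsf21 and Myl10, the first 4 by name of 6 genes with 7. Eln, elastin, had 8 of 8 apart and no assigned H3K27ac peak, and Col26a1, a collagen, had 8 of 9 apart and 4 H3K27ac peaks, none with KLF4. Casz1, a zinc-finger factor, had 7 of 8 apart although it had 12 H3K27ac peaks.

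The run beside Gas8 and Rhou takes in an array of 5S ribosomal RNA genes. Its 91 KLF4 peaks span chr8:123528161-123722541, and 89 of them lay apart from H3K27ac, with a median distance to the nearest edge of 98799 bp. The reference places 41 of its 69 5S rRNA genes there, between 123538784 and 123622046, and 35 of the 41 were overlapped by KLF4 and 0 by H3K27ac. Of the 91 KLF4 peaks, 83 lay in that stretch, 3 before it and 5 after it, and 35 were on a 5S gene. The median distance from a KLF4 centre to the nearest 5S gene's middle was 621 bp. None of the 28 5S genes elsewhere was overlapped by KLF4. The genes were spaced by a median of 1702 bp. KLF4 centres came in a short and a long step: 31 of the 90 spacings were 400 to 700 bp and 50 were 1000 to 1800 bp, with a median of 1165 bp. KLF4 peaks in the run were 126 to 1056 bp wide with a median of 395 bp, against 262 bp over all. The sources used here do not say how reads were placed among the repeated units. Leaving out all peaks in dense runs (829 peaks with 10 or more KLF4 centres in 100 kb) gave an overlap of 48.3% for the rest.

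Among tRNA genes, which RNA polymerase III transcribes as it does 5S genes, acetylation without KLF4 was more frequent than KLF4 with or without acetylation. Of 408, 75 (18.4%) were overlapped by H3K27ac only, 17 (4.17%) by KLF4 only and 11 (2.70%) by both. The H3K27ac list covers 37.2 Mb and the KLF4 list 6.34 Mb. The counts were not adjusted for that, so they do not show which mark favours tRNA genes.

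Promoter windows with KLF4 were rich in G and C whether or not they were acetylated. Of 21237 windows from 17468 genes, 2764 met both marks, 1690 KLF4 only, 4460 H3K27ac only and 12323 neither. Median GC content was 65.3%, 65.7%, 60% and 51%, and the median number of CpG sites was 26, 23, 21 and 5. The motif GGGNGTGG, read on both strands, was in 31.7% of windows with both (30.0 to 33.5%), 36.7% with KLF4 only (34.4 to 39.0%), 16.8% with H3K27ac only and 15.3% with neither, beside 19.4% of all windows. In the middle tercile of GC content the shares were 28.3%, 37.7%, 15.2% and 21.5%. The GC box GGGCGGGG, which SP and KLF factors share, was in 51.1%, 54.1%, 24.2% and 13.0%, beside 23.6% of all. It cannot match the same 8 bases as GGGNGTGG but can share bases with a neighbouring match. The E-box CACGTG was in 12.2%, 10.4%, 11.2% and 5.28%, beside 7.84% of all.

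Matches to the KLF-type motif were densest at the KLF4 centre. In windows that a KLF4 peak met, GGGNGTGG matches numbered 2.50 per kb within 25 bp of the centre and 0.849 per kb at 200 to 400 bp. GGGCGGGG had 4.38 per kb within 25 bp, 4.33 at 25 to 50 bp and 1.55 at 200 to 400 bp, and in windows with KLF4 only it was highest at 25 to 50 bp (5.27, against 4.94 within 25 bp). CACGTG showed no steady fall, with 0.537, 0.377 and 0.503 per kb within 25 bp, at 25 to 50 bp and at 100 to 200 bp. TATAAA had 0.131 per kb within 25 bp and 0.269 at 200 to 400 bp. A match describes letters in a window and not a bound site.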

How the data were processed

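Chromatin immunoprecipitation with sequencing was done for KLF4 and H3K27ac in mouse iPSCs. The authors deposited each group as 1 peak list that holds positions only (chromosome, start and end), a unit of another kind than counts or signal, so depth per sample is unknown. The tools listed, per the submitters' processing notes, are MACS2, bedtools, Bowtie2 and SAMtools, and the build is mm10; versions and roles are not listed. How the 2 replicates were combined, and the peak thresholds, are not given in the sources used here. Samples were grouped by their titles. Embryonic stem cell lists and inputs were not used.

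Starts were read as counted from 0 and are printed counted from 1. Overlap was 1 bp or more. Each peak was assigned by its centre to the nearest end of a coding gene within 100 kb, among 21883 genes of RefSeq GRCm38.p6. That table gives the lower and higher end of a gene. Promoter windows were 21237 from 17468 genes on 20 chromosomes, with chromosome 18 not analysed here. Motifs were counted on both strands, and overlapping matches were allowed. Shares have exact Clopper-Pearson 95% intervals. With 1 list per group there was no test across samples, and differences are descriptions. Python 3.11.15, pandas 2.3.3, numpy 2.4.6, scipy 1.17.1 and matplotlib 3.10.9 were used, and the overlap and distance functions were tested on simulated data.

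The 18 gene lists (321 entries, 302 genes, all found) and the regions were chosen with earlier results of these data known. Genes were named by rank: the 10 pluripotency genes with most overlapping KLF4 peaks, the 10 genes each with most overlapping, most apart and most flanked KLF4 peaks and with most H3K27ac without KLF4, the 5 widest peaks of each kind, and per list up to 6 members by KLF4 peaks plus all with KLF4 and no H3K27ac, with ties in alphabetical order. Some items that this rule names are not reported here. Chosen after their values were seen were the microRNA clusters, the 5S and tRNA genes, the genes under the widest peaks, the windows of Cldn3 and Col5a1, and other list members named for a small count. The printed windows of pluripotency genes were picked from all 37 such genes with KLF4. Alternatives were other overlap and distance rules, joined or wider peaks, other gene sets and other motifs.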

Additional observations from a re-analysis of the deposited data

How the results depend on the processing

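Of 81 alternatives, 57 moved a value by more than its interval or a gene count by more than 1.5 times and 24 did not; no width ratio changed direction. The share of KLF4 peaks overlapping H3K27ac (48.7%) was 35.3% by centre, 37.6% with 50% of the KLF4 peak covered, 58.7% within 1 kb, 50.5% with H3K27ac peaks 1 kb or less apart joined, 41.8% with the wider 50% of H3K27ac and 61.3% with the wider 50% of KLF4. The share of H3K27ac peaks overlapping KLF4 (19.3%) was, in that order, 11.9%, 11.8%, 32.4%, 30.1%, 31.7% and 13.3%, with 18.6% without dense KLF4 runs and 36.1% for as many of the widest H3K27ac peaks as there are KLF4 peaks. The flanked share (10.0%) was 9.29% with edges within 500 bp, 10.6% within 2 kb, 8.88% with H3K27ac 100 bp or less apart joined and 12.4% in wider KLF4. The median distance to H3K27ac (8176 bp) was 13576 bp with joined peaks, 19252 bp with wider H3K27ac and 4392 bp with wider KLF4. The KLF4 width ratio (1.34) was 1.22 by centre and 1.24 near gene ends; the H3K27ac ratio (2.53) was 3.48 by centre, 2.02 near, 2.78 away from gene ends and 2.78 with joined peaks. Genes with both (7966) were 4213 within 2 kb. With all genes of the reference, 4253 carried KLF4 only and 8314 H3K27ac only, since more genes were counted. The share within 2 kb of a gene end became, at 1 kb, at 5 kb, at starts only and with all genes: 36.2%, 51.3%, 40.0% and 49.9% for overlapping KLF4, 22.5%, 38.9%, 24.6% and 38.0% for apart KLF4, 33.9%, 48.9%, 37.7% and 47.5% for H3K27ac with KLF4, and 17.3%, 36.1%, 20.4% and 31.2% for H3K27ac without. In windows with both marks, KLF4 only, H3K27ac only and neither, GGGCGGGG gave 51.1%, 54.1%, 24.2% and 13.0%, and CACGTG 12.2%, 10.4%, 11.2% and 5.28%; in the middle GC tercile GGGNGTGG gave 28.3% with both, 15.2% with H3K27ac only and 21.5% with neither. There the order of the last 2 classes differs from that over all windows (16.8% and 15.3%), and the cause was not tested. No paired analysis was possible because each group has 1 list without values per replicate, and for the same reason no replicate could be left out. Depth, peak height and sequence away from promoters were not analysed here.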

Other observations

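The share of KLF4 peaks that overlapped H3K27ac was compared by chromosome. It ran from 43.0% on chromosome 5 to 55.8% on chromosome X. At promoter windows the TATA-type motif TATAAA was in 4.74% of windows with both marks, 5.15% with KLF4 only, 6.48% with H3K27ac only and 17.6% with neither, beside 12.6% of all windows. Within the middle GC tercile the shares were 7.32%, 5.19%, 7.45% and 8.38%, and within the highest 2.86%, 4.46%, 1.67% and 3.35%.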
